A study of Mus musculus with 2 samples.

Results

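Phgr1, 3 galectins (Lgals2, Lgals3 and Lgals4), 5 genes of the intestinal epithelial cell surface (Epcam, Cdh17, Gpa33, Tspan8 and Ceacam1) and the cytosolic lipid carrier Fabp2 were followed through 2 polyadenylated RNA libraries of mouse colon. These 10 genes, of 43346 Ensembl genes in the deposited tables, were taken by symbol, and all 10 were found in both libraries. The group was selected on measured values, chosen partly by the very high TPM level of Phgr1 in these libraries, so levels are given as a description and carry no test. Both libraries came from colon tissue of adult C57BL/6J mice aged 8 weeks, with no treatment or genotype difference named, and are numbered as biological replicates 1 and 2 of a single group. The labels describe pooled male and female littermates and give both libraries the same donor record (1 in all), so they do not say how the animals were divided between the libraries. The libraries were stranded, were read from both ends at 76 nt, and were made from RNA above 200 nt after ribosomal RNA had been depleted, and they contain spike-ins.

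Epithelial cells line the colon as a single layer, with mucus and bacteria on one side and connective tissue on the other. Many of the proteins followed here act at the borders of its cells: adhesion molecules hold neighbouring cells together, tetraspanins organise other membrane proteins, and galectins bind sugar chains on glycoproteins and glycolipids. Galectin-4 is known for the clustering of glycolipids at the apical membrane of enterocytes, and Ceacam1 is an adhesion molecule that also signals into the cell through its tail.

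The tables summed to 46271167 expected counts over Ensembl genes in replicate 1 and 45499561 in replicate 2. An expected count is a read count estimated by the authors, in which reads shared by several transcripts are divided between them. The libraries went against their label of pooled sexes: Xist had 8721 counts in replicate 1 and 12 in replicate 2, and 4 Y-linked genes together had 0 and 1382, so the libraries did not hold RNA of the same mix of animals. They also differed in markers of other tissues. The 10 pancreatic acinar markers had a summed level of 452 TPM in replicate 1 against 34764 in replicate 2, with all 10 higher in replicate 2. Most of the replicate 1 sum was Cela1, at 423 TPM there and 2606 in replicate 2. The 5 blood markers summed to 525 and 2998 TPM. TPM, a level per transcript length scaled to the same total in each library, can be compared between genes. The epithelial identity of the tissue was present in both: Cdh1, Vil1 and 4 keratins summed to 9244 and 9430 TPM, and the 6 colonocyte markers to 18404 and 20340. Of 6 small intestine enterocyte markers, 1 (Alpi, at 36.4 and 27.8 TPM) reached a TPM of 1 in both libraries, and Fabp1, a defining one, had 1 count in each.

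All 10 genes reached a TPM of 1 in both libraries. Of all 43346 Ensembl genes, 13638 did so in replicate 1 and 13837 in replicate 2, a background also for the lists of relatives below. The levels of the 10 genes spread very widely, the highest standing 1905-fold above the lowest in replicate 1 and 7927-fold in replicate 2. Together they took 20084 TPM in replicate 1 and 22409 in replicate 2, or 2.01% and 2.24% of all TPM. Phgr1 alone made up 51.9% and 60.5% of that sum, and the 3 galectins 35.1% and 29.6%. In whole tissue, fewer cells of a type and less RNA per cell cannot be told apart.

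**Figure D1:**
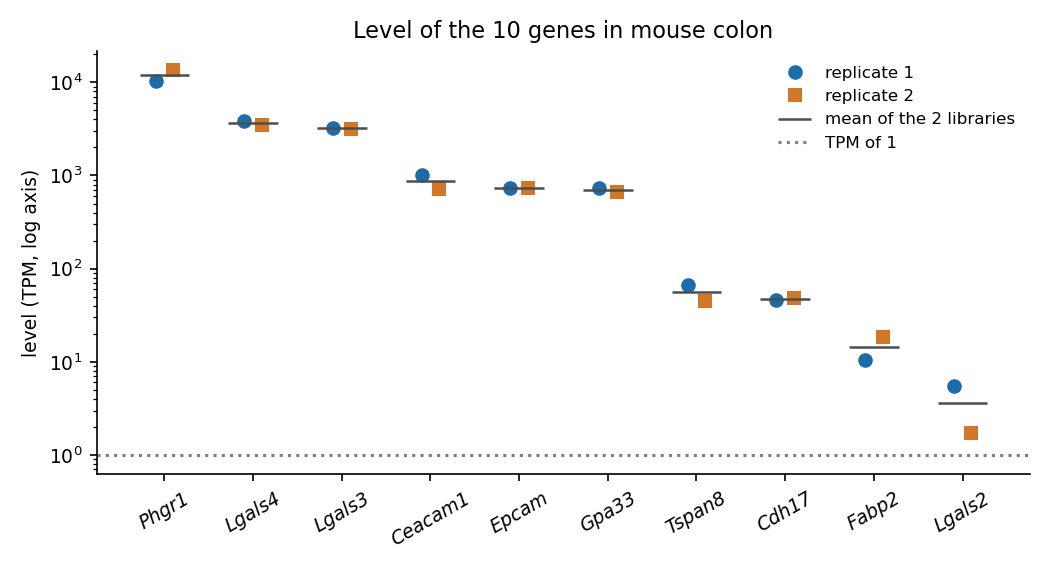
Level of each gene in TPM on a log axis; circles are replicate 1, squares replicate 2, bars the mean of the 2 libraries and the dotted line a TPM of 1. Phgr1 stands highest at 10421 and 13556 TPM, Lgals4 and Lgals3 follow at means of 3638 and 3204, and Lgals2 is lowest at 5.47 and 1.71.

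Phgr1 (ENSMUSG00000046804.9, chr2:118772769-118778165, plus strand, mm10) encodes a small protein named for its richness in proline, histidine and glycine, known from intestinal epithelium and of little-known function. Its level was 10421 TPM in replicate 1 and 13556 in replicate 2 (11989 ± 2216, SD, n = 2). This put it at rank 2 of 17004 protein-coding genes with a TPM above 0, mitochondrially encoded genes left out, at rank 3 in replicate 1 and rank 2 in replicate 2. The one gene above it by mean was Sprr2a2, of the small proline-rich family, whose close copies make its count uncertain, at 49831 and 21542 TPM. Directly below were Lypd8, an antibacterial surface protein of colonocytes, at 11364 and 10823 TPM, and Muc2, the main gel-forming mucin of goblet cells, at 8861 and 11591. The ranges of Phgr1, Lypd8 and Muc2 over the 2 libraries overlapped, so the order of these 3 was not resolved. By distance over log2(TPM + 1) in the 2 libraries, the genes nearest to Phgr1 were Muc2 (0.33), Lypd8 (0.35) and Rplp1 (0.70), the last a ribosomal stalk protein at 7268 and 9775 TPM.

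TPM is a level per length, and the rank of Phgr1 was lower on measures that use length otherwise. It drew 126431.81 expected counts in replicate 1 and 167300 in replicate 2, or 0.273% and 0.368% of all counts, which is rank 12 when genes are ordered by counts without regard to length. Its transcript has 542 bases, and the deposited effective length, the number of positions at which a fragment can start, was 332 and 342. Per full transcript length, its rank was 4. These orderings by count were chosen after the levels were seen.

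The Phgr1 coding sequence is shown because its makeup is what the gene is named for. It was read from the GENCODE vM21 sequence of the transcript Phgr1-202 (mm10, plus strand), between the start and the stop codon, and the first 300 of its 336 bases are given, within chr2:118774683-118777996. Capitals mark triplets of the forms GGN (glycine), CCN (proline), and CAC or CAT (histidine).
Phgr1 coding sequence: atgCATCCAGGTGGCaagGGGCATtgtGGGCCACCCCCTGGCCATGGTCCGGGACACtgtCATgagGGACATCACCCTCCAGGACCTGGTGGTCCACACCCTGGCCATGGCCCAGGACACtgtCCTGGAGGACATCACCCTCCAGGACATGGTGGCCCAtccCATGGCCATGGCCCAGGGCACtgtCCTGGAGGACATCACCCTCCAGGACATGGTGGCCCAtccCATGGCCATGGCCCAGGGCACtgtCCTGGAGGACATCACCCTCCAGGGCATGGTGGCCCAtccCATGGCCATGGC
Of all its 112 triplets, 100 (89.3%) were of these forms, 40 for glycine, 29 for proline and 31 for histidine. In the main transcripts of the other 9 genes that share ran from 9.21% in Epcam to 31.1% in Lgals3, whose galectin domain follows a proline- and glycine-rich tail. The sequence repeats itself, with a stretch of 63 bases found at 2 places, and it held 65.2% G and C against 43.4% to 57.2% in the coding sequences of the others. How reads from the repeated stretches were placed is not stated in the labels or headers.

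Nearly all of the Phgr1 signal was assigned to a single transcript. Phgr1-202 held 126424.78 counts in replicate 1 and 167292.4 in replicate 2, while Phgr1-201 held 7.03 and 7.60. The pair differ at the start of the coding sequence, where Phgr1-202 has an 8-base exon at chr2:118775781-118775788 and Phgr1-201 has 5 more bases at the end of the exon before it, at chr2:118774693-118774697. Both starts are shown with the bases particular to each in capitals (mm10, plus strand).
Phgr1-202 start: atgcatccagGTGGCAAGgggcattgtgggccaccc
Phgr1-201 start: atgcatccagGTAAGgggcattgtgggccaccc
The difference of 3 bases keeps the reading frame, and the form with the short exon took nearly all counts in both libraries. The whole transcripts, of 542 and 538 bases, differ by 4, so the models also differ slightly outside the coding sequence.

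Lgals4 (ENSMUSG00000053964.12, chr7:28833854-28841708, plus strand) encodes galectin-4, a tandem-repeat galectin with a pair of sugar-binding domains in one chain. Its level was 3806 TPM in replicate 1 and 3470 in replicate 2 (3638 ± 237, SD, n = 2), rank 22 among protein-coding genes. Phgr1 stood 2.74-fold above it in replicate 1 and 3.91-fold in replicate 2. Its counts were 158109 and 142865.

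Lgals3 (ENSMUSG00000050335.12, chr14:47367751-47386160, plus strand) encodes galectin-3, the chimeric galectin with a single sugar-binding domain, made by epithelium and by macrophages. It was at 3247 and 3160 TPM (3204 ± 61.6, SD, n = 2), rank 26. The 2 galectins did not overlap: Lgals4 stood 1.17-fold above Lgals3 in replicate 1 and 1.10-fold in replicate 2. The 7 macrophage markers had a summed level of 481 and 450 TPM, none of them 2-fold apart, and how much of the Lgals3 signal came from macrophages was not tested.

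Lgals2 (ENSMUSG00000043501.4, chr15:78850860-78855529, minus strand), a small single-domain galectin, was the lowest of the 10 genes. It had 76 counts in replicate 1 and 24 in replicate 2, or 5.47 and 1.71 TPM (3.59 ± 2.66, SD, n = 2), and Lgals4 stood 696-fold and 2029-fold above it. Lgals2 lies across from Cdc42ep1, a gene on the opposite strand that overlaps it and had 4138 and 4210 counts. Whether counting used the strand is not stated in the labels or headers, so the gene of origin of reads from shared bases is uncertain. The overlap is one of gene spans, and how many bases their exons share was not measured.

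Beside their relatives, Lgals4 and Lgals3 held the first 2 places among galectins. Of 11 listed galectin genes and relatives, 10 were found, and 9 reached a TPM of 1 in both libraries. The next were Lgals3bp, a secreted galectin ligand, at 281 and 226 TPM, and Lgals1, a galectin of stromal and muscle cells, at 220 and 198. Lgals4 stood 17.3-fold above Lgals1 in replicate 1 and 17.5-fold in replicate 2. Lgals9 followed at 93.3 and 73.2 TPM, and Lgals2 was 9th of 10 by mean level, above Lgals7 at 0.390 and 1.38.

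**Figure D2:**
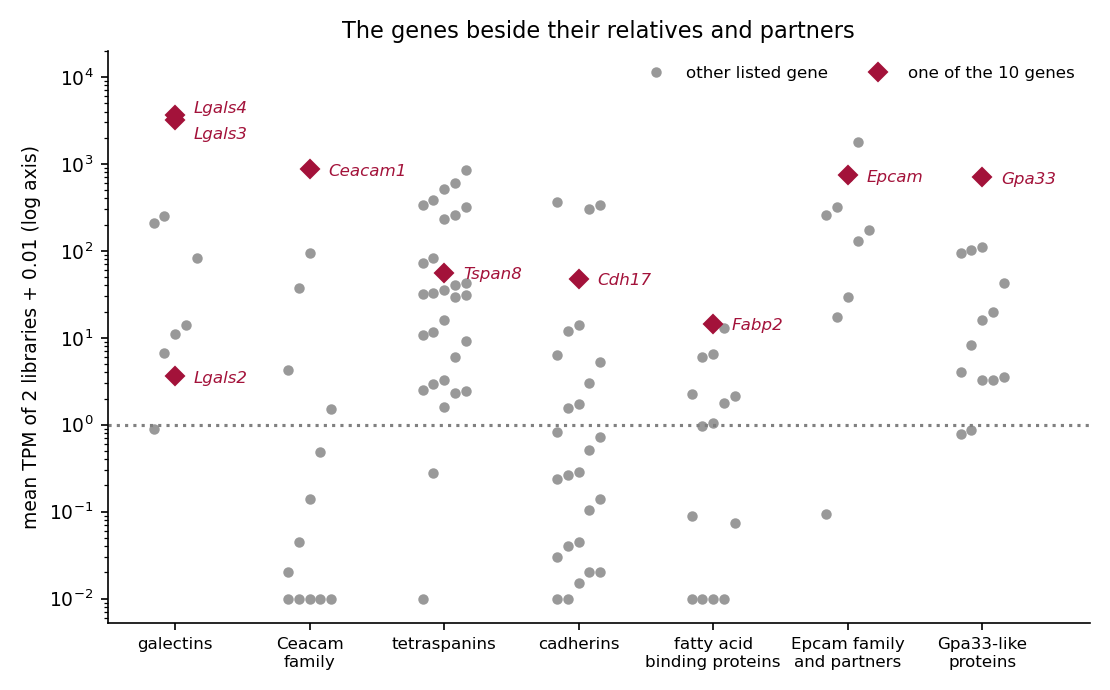
Mean TPM of the 2 libraries, with 0.01 added, on a log axis for the genes of 7 lists; diamonds are the genes described here, grey points the other listed genes, and the dotted line is 1 on this axis. Lgals4, Lgals3, Ceacam1, Fabp2 and Gpa33 stand at the top of their lists, Tspan8 and Cdh17 do not, and the point of Cldn7 (715) lies under that of Epcam (735).

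Ceacam1 (ENSMUSG00000074272.6, chr7:25461707-25477603, minus strand), an adhesion molecule of the immunoglobulin superfamily, was at 1014 TPM in replicate 1 and 711 in replicate 2 (862 ± 215, SD, n = 2), rank 124. Of 14 Ceacam genes, 5 reached a TPM of 1 in both libraries and 5 were at 0 counts in both, which allows up to 3 counts in each. Ceacam20 came next, at 102 and 88.2 TPM, and Ceacam10, which lacks a membrane anchor, at 32.7 and 42.3. Ceacam1 stood 9.91-fold and 8.06-fold above Ceacam20. Ceacam2, its close relative on the same chromosome, was at 1.78 and 1.25 TPM, 570-fold and 568-fold below Ceacam1, and reads shared by such near copies may have been divided wrongly.

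Ceacam1 transcripts differ at 2 places, in the number of extracellular immunoglobulin domains and in the length of the cytoplasmic tail, whose long form carries the inhibitory tyrosine motifs. Ceacam1-201, with the full set of extracellular coding exons and the short tail, took 84.4% of the gene's TPM in replicate 1 and 85.9% in replicate 2. Ceacam1-202 took 15.6% and 14.0%, at 158 and 99.7 TPM. It has the long tail and lacks 2 extracellular coding exons of 285 and 255 bases, at chr7:25474520-25474804 and chr7:25473798-25474052. Ceacam1-203, which has both the full extracellular part and the long tail, held 20.03 counts in replicate 1 and 44.53 in replicate 2, a share of 0.0200% and 0.0500%. The order of these 3 was therefore the same in both libraries.

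The tail is set by an exon of 53 bases at chr7:25465468-25465520 (mm10, minus strand). Its inclusion shifts the reading frame, and the coding bases after the transmembrane exon number 202 with it and 13 without it. Both forms are shown from the last bases of the transmembrane exon onward, from GENCODE vM21 transcripts, with the exon in capitals in the first line and the stop codon in capitals in the second.
Ceacam1 with the exon: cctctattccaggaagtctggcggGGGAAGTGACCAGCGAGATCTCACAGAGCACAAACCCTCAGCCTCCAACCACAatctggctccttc
Ceacam1 without the exon: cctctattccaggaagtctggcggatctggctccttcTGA
Without the exon, the frame reaches a stop codon within the next exon, which gives the short tail of Ceacam1-201. The deposited transcript lengths bear the same difference, Ceacam1-203 being 53 bases longer than Ceacam1-201 and 540 bases longer than Ceacam1-202. Exons were taken from vM21, where Ceacam1-202 and Ceacam1-203 are shorter models (1478 and 2873 bases) than those quantified (3196 and 3736). The tables quantified 3 Ceacam1 transcripts, so a short-tailed form with fewer extracellular exons had no entry of its own. A link between the distant exons rests on the authors' estimate, since the extracellular exons and the tail exon lie far apart in the transcript.

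Epcam (ENSMUSG00000045394.8, chr17:87635979-87651129, plus strand) encodes an epithelial adhesion molecule of the lateral membrane. It was at 730 TPM in replicate 1 and 739 in replicate 2 (735 ± 6.32, SD, n = 2), rank 155. Among 10 genes of its family and partners it was second, below Spint2, a serine protease inhibitor of the cell surface, at 1829 and 1739 TPM. Cldn7, a claudin that binds Epcam, was nearly level with it at 722 and 709 TPM, a ratio of Epcam to Cldn7 of 1.01 and 1.04.

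Gpa33 (ENSMUSG00000000544.10, chr1:166130238-166166510, plus strand) encodes the A33 antigen, an immunoglobulin-type surface protein of intestinal epithelium. Its level was 737 TPM in replicate 1 and 658 in replicate 2 (698 ± 55.8, SD, n = 2), rank 168. The ranges of Ceacam1, Epcam and Gpa33 over the 2 libraries overlapped from neighbour to neighbour. Of 14 related surface proteins, 12 reached a TPM of 1 in both libraries, and Gpa33 stood 6.09-fold and 6.71-fold above the next, the junction protein gene F11r at 121 and 98.2 TPM. Vsig10 was at 95.8 and 111 TPM and Clmp at 102 and 86.2.

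Tspan8 (ENSMUSG00000034127.10, chr10:115816832-115849893, plus strand), a tetraspanin of gut epithelium, was at 66.6 TPM in replicate 1 and 45.0 in replicate 2 (55.8 ± 15.3, SD, n = 2), rank 2516. Gpa33, its neighbour above in the order of the 10 genes, stood 12.5-fold higher by mean. Of 31 tetraspanin genes, 29 reached a TPM of 1 in both libraries, and Tspan8 was 11th. Leading the list were Tspan13 at 790 and 930 TPM, Tspan1 at 706 and 504, and Tspan3 at 579 and 460. The ratio of Tspan13 to Tspan8 was 11.9 in replicate 1 and 20.7 in replicate 2, so Tspan8 stood well below the leading tetraspanin in both.

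Cdh17 (ENSMUSG00000028217.7, chr4:11758147-11817895, plus strand) encodes liver-intestine cadherin, a calcium-dependent adhesion molecule without the catenin-binding tail of classical cadherins. It was at 45.5 and 49.0 TPM (47.2 ± 2.50, SD, n = 2), rank 2875, and its range overlapped that of Tspan8. Of 27 cadherin genes, 11 reached a TPM of 1 in both libraries, and Cdh17 was 4th. Above it stood Cdhr5 and Cdhr2, the protocadherins that link neighbouring microvilli, at 333 and 396 TPM and at 330 and 267, and Cdh1, the E-cadherin of adherens junctions, at 325 and 346. Cdh1 was 7.15-fold above Cdh17 in replicate 1 and 7.07-fold in replicate 2.

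Fabp2 (ENSMUSG00000023057.5, chr3:122895072-122899506, plus strand) encodes the intestinal fatty acid binding protein, a cytosolic lipid carrier of absorptive cells best known from the small intestine. It had 290 counts in replicate 1 and 505 in replicate 2, at 10.5 and 18.3 TPM (14.4 ± 5.52, SD, n = 2), rank 6275. Fabp2 had the highest mean of 15 listed fatty acid, retinol and retinoic acid binding protein genes, of which 7 reached a TPM of 1 in both libraries. Fabp4, the adipocyte form, was at 7.97 and 18.3 TPM, a range that overlaps that of Fabp2, and Crabp1, a retinoic acid carrier, at 10.9 and 2.07. Fabp1, the liver form that small intestine also makes, had 1 count in each library.

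Set side by side, the libraries differed by at least 2-fold in 1 of the 10 genes, Lgals2, against 8.74% of the 17713 genes whose counts in both libraries summed to 10 or more. Shares were lower among well-expressed genes, at 3.91% of 12236 genes with a mean TPM of 1 to 100, where Lgals2 lies, and 3.07% of 1533 genes at 100 or more. Lgals2 is near the bottom of its range, with 76 and 24 counts, so 3.91% is not the share of genes of like depth. Of the 1549 genes apart, 414 had a summed count of at least 100. Of the 17713 genes, 3.63% were at least 2-fold higher in replicate 1 and 5.11% in replicate 2. Differences are log2 ratios of scaled counts, replicate 1 over replicate 2, and their 95% binomial intervals cover counting error only. With 1 library on each side, no ratio has a replicate check.

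Lgals2 was 3.05-fold higher in replicate 1, a log2 ratio of 1.61 with an interval of 0.95 to 2.36, whose lower end lies inside 2-fold. Fabp2 was 1.78-fold higher in replicate 2 (-0.83, interval -1.05 to -0.62). These were the 2 lowest of the 10 genes. The small intestine markers did not all move one way. Of the 5 with enough counts, 2 were at least 2-fold higher in replicate 1 and 1 in replicate 2, with a median log2 ratio of 0.82. Alpi, which had by far the most counts (2832 and 2140), was higher in replicate 1 (0.37, interval 0.29 to 0.45). Sis had 53 counts in replicate 1 and 17 in replicate 2, though its TPM was nearly level at 0.250 and 0.240. Fabp6 had 13 and 6 counts, a log2 ratio of 1.02 whose interval, -0.41 to 2.76, covers both directions. Apoa4 had 6 and 17 counts. Lct had 13 and 7 counts. The summed level of the small intestine markers was 38.2 TPM in replicate 1 and 29.0 in replicate 2, most of it Alpi. The 5 adipocyte markers, one of them Fabp4, summed to 216 and 469 TPM, and the part of any of these cells in the Fabp2 or Lgals2 ratio was not tested.

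Among the others, Tspan8 was 1.49-fold higher in replicate 1 (0.58, interval 0.49 to 0.66) and Ceacam1 1.41-fold higher there (0.49, interval 0.48 to 0.51). Phgr1 was 1.35-fold higher in replicate 2 (-0.44, interval -0.45 to -0.43). Gpa33 (0.15), Lgals4 (0.11), Lgals3 (0.04), Epcam (-0.04) and Cdh17 (-0.12) lay close to 0. The median log2 ratio of the 10 genes was 0.08, against -0.01 over all genes, and their median absolute log2 ratio was 0.29, against 0.23. None of the 6 general epithelial markers was 2-fold apart, their log2 ratios running from -0.25 to 0.27. The 6 colonocyte markers ran from -0.69 to 0.12 and the 6 goblet markers from -0.39 to 0.01 (medians -0.18 and -0.15), and their part in the Phgr1 ratio was not tested. The 10 acinar markers took a far larger part of replicate 2. Leaving them out hardly changed the scaling, the ratio of scaled library sizes being 1.02285 with them and 1.02296 without. That the 10 genes kept their directions therefore says little, and the effect of other pancreatic transcripts was not tested.

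**Figure D3:**
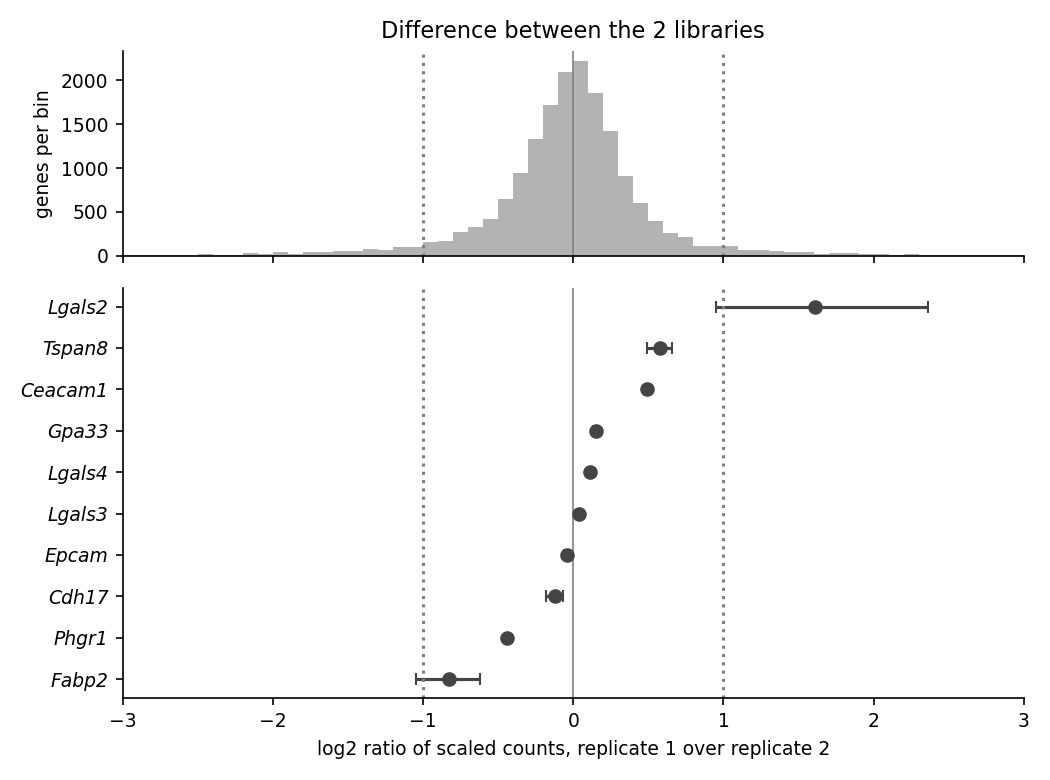
Upper panel, number of genes per bin of 0.1 in log2 ratio (replicate 1 over replicate 2) for 17713 genes, of which 259 lie beyond the axis at 3; lower panel, the 10 genes with 95% counting intervals. Dotted lines mark 2-fold, and Lgals2 at 1.61 is the one point beyond them.

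Genes 2-fold apart were also counted in the lists of relatives, over those with enough counts, beside the 8.74% of all genes. Among galectins there were 2 of 10, Lgals2 and Lgals7, the latter with 4 counts in replicate 1 and 17 in replicate 2. In the Ceacam family there was 1 of 7, Ceacam16 (8 and 41 counts), and among tetraspanins 1 of 30, Tspan10 (20 and 9). Cadherins gave 3 of 19, Cdh20 (46 and 16) and Cdh8 (14 and 4), higher in replicate 1, and Cdhr4, higher in replicate 2. Of the fatty acid binding protein list 4 of 9 were apart. Crabp1 (237 and 45 counts) and Fabp6 (13 and 6) were higher in replicate 1. Fabp4 (262 and 557) and Rbp7 (9 and 22) were higher in replicate 2. Fabp6, Rbp7, Tspan10, Cdh8 and Lgals7 had few counts. The intervals of Fabp6 and Tspan10 (-0.08 to 2.44) covered both directions. Those of Cdh8 (0.10 to 3.84), Lgals7 (-4.15 to -0.50) and Rbp7 (-2.62 to -0.15) reached inside 2-fold. None of the 14 Gpa33-like genes was 2-fold apart. Median log2 ratios of the lists were 0.12 for galectins, -0.25 for Ceacam genes, 0.17 for tetraspanins, -0.07 for cadherins, 0.03 for fatty acid binding proteins, -0.07 for Epcam partners and -0.15 for Gpa33-like genes.

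Transcript makeup was described from the share of each gene's TPM given to each transcript. Epcam, Fabp2 and Lgals2 had 1 quantified transcript, and the other 7 genes had several. Cdh17-201 (98.3% and 98.6%) and Lgals4-201 (93.2% and 92.7%) took most of their genes, and the other Lgals4 models, led by Lgals4-203 at 3.53% and 3.06%, are annotated as retained introns or as a target of nonsense-mediated decay. Gpa33 was divided between Gpa33-202 (57.9% and 56.3%) and Gpa33-204 (41.8% and 43.0%), which share their coding exons and differ outside them.

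Tspan8 was the gene whose leading transcript differed between the libraries. Tspan8-201 took 71.8% in replicate 1 and 43.3% in replicate 2, with 2291.27 and 928.47 counts. Tspan8-202 took 27.1% and 54.6%, with 796.61 and 1077.99 counts. In the GENCODE vM21 models the pair have the same coding blocks of 705 bases and differ outside them. Their first exons are not the same, and Tspan8-201 has 8 exons against 9 in Tspan8-202. The quantified models are an earlier release, with 1522 and 1416 bases against 1244 and 1156 in vM21, so they were not identical to these. The log2 ratio was 1.27 for Tspan8-201 (interval 1.16 to 1.38) and -0.47 for Tspan8-202 (interval -0.60 to -0.33), so the higher gene level in replicate 1 lay in Tspan8-201. The intervals do not cover the error of dividing reads between transcripts that differ by 106 bases in deposited length.

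Lgals3 showed a smaller shift of the same kind. Lgals3-204 took 82.5% in replicate 1 and 87.3% in replicate 2, and Lgals3-201 took 12.5% and 7.69%. In vM21 the pair differ in the first exon and have the same coding blocks, but Lgals3-204 was quantified as a model of 999 bases and has 1298 in vM21. Lgals3-201 had 17957.87 and 10685.85 counts, a log2 ratio of 0.72, beside -0.07 for Lgals3-204. Lgals3-202, a short partial model, held 4.90% and 4.92%. The gene's total was therefore nearly level between the libraries while the part given to Lgals3-201 was not.

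**Figure D4:**
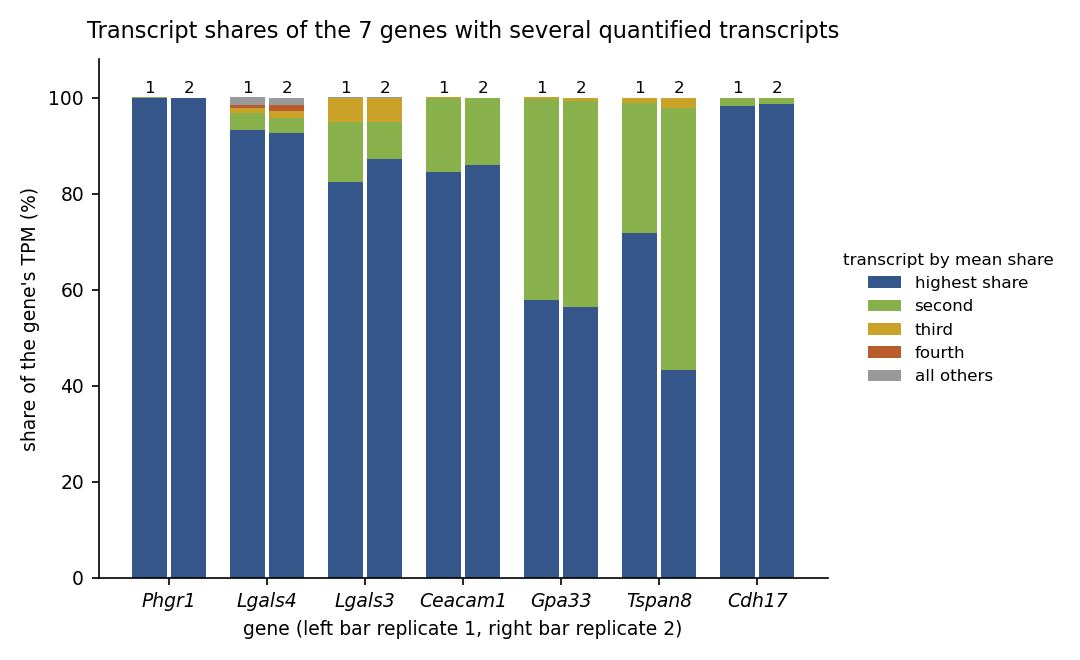
Share of each gene's TPM by transcript, in percent, for the 7 genes with several quantified transcripts; the left bar is replicate 1, the right bar replicate 2, and colours order transcripts by mean share. The leading share of Tspan8 is 71.8% in replicate 1 and 43.3% in replicate 2, and that of Lgals4 is 93.2% and 92.7%.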

How the data were processed

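The labels' protocols describe 2 stranded polyadenylated RNA libraries of colon, 1 group. Per the file headers and deposited notes, the authors' gene and transcript tables use mm10 with GENCODE M4. They hold expected counts (reads estimated per feature, not normalized), TPM (scaled by the authors to 1000000 over all features), posterior mean TPM and FPKM, and the percent of a gene's TPM given to each transcript, all as deposited. The authors' bounds of TPM were treated as a score and enter no result. For the aligner, the quantifier's version and the use of strand, the answer is not given in the sources used here. Junction and contig files on mm9 were not used here.

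Symbols, coordinates, exons and coding blocks came from GENCODE vM21 by identifier without version; 42462 of 43346 Ensembl genes matched, and those without a symbol took 0.0973% and 0.0907% of counts. Spike-ins, 0.895% and 1.02% of counts, and 26248 numeric identifiers stayed out of library sizes. Expected counts were rounded, library sizes were scaled by TMM in edgeR 4.0.16 (R 4.3.3), 0.5 was added to each count, and exact 95% binomial intervals were computed in Python 3.11.15 with scipy 1.17.1. A gene counted as apart at 2-fold with a summed count of at least 10. The ratio and interval steps were tested on simulated counts with known fold changes. These counts held counting error alone and used the scaled library sizes as given, so the scaling itself was not tested. No p-values were computed, as there is 1 group of 2 libraries. Printed sequences were read from GENCODE vM21 transcripts (mm10).

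Named genes are the 10 genes, the 3 highest of each list and those needed to describe a small count, and the genes next to Phgr1 in rank or nearest to it. Other names were chosen with their values in view. A result on 1 listed gene is not reported here. The members and lists were chosen with earlier results of these data known. Alternatives were DESeq2 1.42.0 size factors, total counts, TPM ratios, other added counts, filters and folds, posterior mean TPM, FPKM, and levels or scaling without acinar markers.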

Additional observations from a re-analysis of the deposited data

How the results depend on the processing

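Each of the 10 genes kept the direction of its log2 ratio under 6 alternatives of scaling, added count and measure. Of those 60 values 56 stayed within the counting interval; under the ratio of TPM + 0.5, Phgr1 moved to -0.38, Epcam to -0.02, Lgals4 to 0.13 and Ceacam1 to 0.51. The ratio of Lgals2 ran from 1.43 to 1.63 and that of Fabp2 from -0.83 to -0.77. The number of the 10 genes apart was 1 under each alternative except a fold of 1.5, which gave 2. Under the filter of a summed count of at least 100, Lgals2 passed exactly at the limit, with 76 and 24 counts. Over all genes, 1549 were apart, and the number was 611 by the ratio of TPM + 0.5, 4312 with no filter, 414 at a summed count of at least 100 and 3267 at a fold of 1.5. Phgr1 ranked 2nd among protein-coding genes, between 2 and 3 when a library was left out, and 12th by expected count and 4th by count per full transcript length, both chosen after seeing the data. Leaving out a library gave a mean TPM of 1.71 or 5.47 for Lgals2 and of 10.5 or 18.3 for Fabp2. Against the SD of the libraries, which relative to the level was smallest for Epcam, other measures moved a mean level by more than 1 SD for Epcam alone, from 735 to 728 with posterior means and 748 without acinar markers. Leading transcript shares by expected count were 60.5% for Gpa33-202, 96.2% for Lgals4-201 and 86.9% for Ceacam1-201. No paired analysis was possible because there is 1 group. Depth limits Lgals2 most, at 76 and 24 counts. With 2 libraries, SDs are rough.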

Other observations

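Promoters of 9 of the 10 genes were found in the RefSeq table (GRCm38.p6), the other being Cdh17. Each promoter runs from 250 bases before to 50 after a RefSeq start, which is not always the first base of the GENCODE gene. For Lgals3 (chr14:47373610-47373909) and Tspan8 (chr10:115817034-115817333) it lies inside the GENCODE gene span. The Lgals4 promoter (chr7:28833544-28833843) ends before the GENCODE span of that gene begins, at chr7:28833854. Motifs were searched on both strands by exact letters. A match is a description, not a binding site. TATAAA was found in 0 of the 9, against 13.6% of 32851 promoters. GGGCGG was found in 3 (Epcam, Lgals3 and Lgals4), against 35.7%. TTTAT, which overlaps TATAAA on the other strand, was found in 5 (Epcam, Gpa33, Tspan8, Lgals2 and Fabp2), against 40.0%. CAAAGT was found in 4 (Gpa33, Tspan8, Lgals2 and Fabp2), against 14.4%, and CACCC in 6 (Phgr1, Epcam, Gpa33, Lgals2, Lgals3 and Ceacam1), against 57.5%. The HNF1 palindrome was found in 0 of the 9 and in 0.00913% of all promoters.

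The promoters differed in CpG content. The Phgr1 promoter held 0 CG pairs at 55.0% G and C, while that of Lgals3 held 18 at 67.0% and that of Epcam 11. The median over all promoters was 7 CG pairs at 52.7% G and C, and Fabp2 had the lowest G and C of the 9, at 38.7%.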
